A study of Mus musculus with 2 samples.

Results

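The 9 genes described here encode the adhesion molecules that draw leukocytes out of the blood, and they were followed in regenerating mouse muscle 2 and 7 days after injury. They were taken by name from the 27998 genes counted in the series. The 5 ligands displayed by vessels (Sele, Selp, Icam1, Icam2 and Vcam1) were read first in cells annotated as endothelial, and the 4 partners carried by leukocytes (Selplg, Itgal, Itgb2 and Itga4) first in cells annotated as leukocytes. All 9 were counted in both libraries. A level below is the count of a gene scaled to a fixed total over all genes (counts per 1000000, or CPM), after summing the cells of 1 annotated cell type and 1 day.

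A leukocyte leaves a vessel in steps. Selectins on activated endothelium catch it and let it roll, and P-selectin glycoprotein ligand 1 (PSGL-1, from Selplg) is the main protein they bind on the leukocyte. Chemokines then switch leukocyte integrins to a form that binds tightly. LFA-1, made of the chains encoded by Itgal and Itgb2, grips ICAM-1 and ICAM-2, and VLA-4, made of the chains encoded by Itga4 and Itgb1, grips VCAM-1. In most tissues this traffic runs through the small veins. In injured muscle neutrophils arrive first, followed by monocytes that become macrophages and then by lymphocytes.

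The libraries came from tibialis anterior muscle, a muscle of the shin, of C57Bl/6 mice (C57BL/6J in the annotation table) that had received notexin, a toxin from snake venom that destroys muscle fibres. One whole-muscle library was made from 1 mouse at day 2 and another from 1 mouse at day 7, with the 10x Chromium v3 chemistry, and no uninjured library was analysed here. The mice carried no transgene named in the labels. The sample labels call both animals female and 7 months old, whereas the cell annotation table calls both male, 4 months old at day 2 and 7 months old at day 7. Transcripts of 4 genes of the Y chromosome (Uty, Ddx3y, Eif2s3y and Kdm5d) summed to 6575 counts at day 2 and 4856 at day 7, against 5 and 1 counts of Xist, so the label of sex went against both libraries. Time after injury, animal and library cannot be told apart in this design, age included. There were no replicates, no test was possible, and every interval below is an exact 95% interval that covers counting error only.

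The comparison between the days rested on 3178 cells at day 2 and 3196 at day 7, with medians of 9058.5 and 6583 counts per cell. Only 1 cell barcode occurred in the kept cells of both libraries. Endothelial markers were plain in all 4 endothelial cell types, their 6 genes summing to between 4165 and 4822 CPM at day 2 and between 6378 and 7506 CPM at day 7, while 4 leukocyte markers summed to between 15.8 and 59.9 CPM at day 2 and between 11.98 and 32.3 CPM at day 7. A pair of leukocyte annotations matched their markers poorly. Only 1 of the 10 day 7 cells called neutrophils held at least 3 counts of the 5 neutrophil markers (672 of 708 at day 2), so neutrophils were read at day 2 only. Of the 50 day 2 cells called T cells, 16 held at least 3 counts of T cell markers (214 of 293 at day 7) and 17 held at least 3 counts of basophil markers.

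**Figure D1:**
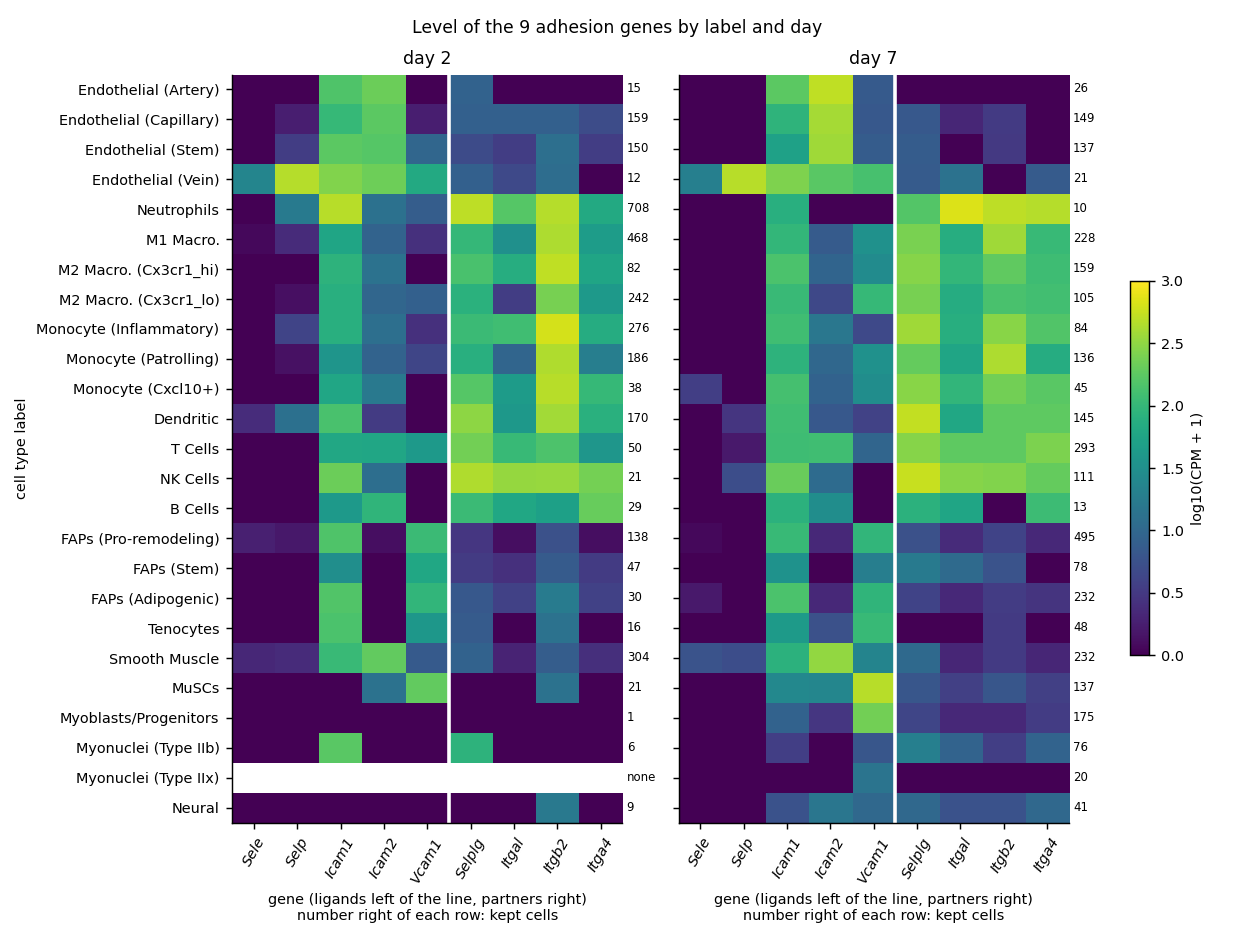
Level of the 9 adhesion genes (columns) in each annotated cell type (rows) at day 2 and day 7, as log10(CPM + 1) by colour, with the number of cells right of each row. Selp stands out in vein endothelium, Icam2 in endothelial types and smooth muscle, Vcam1 in muscle stem cells and FAPs, and the 4 partners in leukocytes. The blank row is a myonuclear type with no kept cell at day 2.

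The genes for both endothelial selectins lie next to each other on chromosome 1. In GRCm38, the mm10 assembly used for counting, Sele (E-selectin) spans chr1:164048234-164057677 and Selp (P-selectin) spans chr1:164115264-164150026, both on the plus strand, with 57586 bases between them. Because all Sele counts of the endothelial cells fell in cells that also held Selp, the 250 bases before each start are shown here (RefSeq, GRCm38.p6, plus strand, chr1:164047984-164048233 and chr1:164115014-164115263), with matches to the AP-1 motif TGANTCA in capitals.
Sele: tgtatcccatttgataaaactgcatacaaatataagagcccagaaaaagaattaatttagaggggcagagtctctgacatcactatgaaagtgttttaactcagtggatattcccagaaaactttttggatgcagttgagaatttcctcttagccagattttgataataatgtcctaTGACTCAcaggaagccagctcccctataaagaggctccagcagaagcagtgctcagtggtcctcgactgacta
Selp: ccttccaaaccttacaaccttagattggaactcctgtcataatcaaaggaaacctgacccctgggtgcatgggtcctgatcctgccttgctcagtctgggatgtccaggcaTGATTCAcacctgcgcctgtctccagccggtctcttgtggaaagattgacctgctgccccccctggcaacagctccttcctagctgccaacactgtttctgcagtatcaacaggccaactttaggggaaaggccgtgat
Each of these sequences held 1 match, which is the same on both strands, beginning 73 bases before the start of Sele and 139 bases before that of Selp. The motif occurred in 6.75% of the 32841 promoter sequences of the same length. Promoter sequences were found for 4 of the 9 genes (also Icam1 and Itga4). Icam1 and Itga4 held no AP-1 match. None of the 4 held a full match to the NF-kB consensus GGGRNNYYCC on either strand, which 7.25% of all promoters did. In it R is A or G, Y is C or T and N is any base. Sites that differ from this pattern were not searched for, so the absence covers full matches only.

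P-selectin is stored in granules of endothelial cells and platelets and moves to the surface within minutes of injury. Among endothelial cells its transcript sat almost entirely in those annotated as vein, 12 at day 2 and 21 at day 7. The level there was 467 CPM (390 to 556, 128 counts) at day 2 and 480 CPM (378 to 601, 76 counts) at day 7, with a log2 ratio of day 7 to day 2 of 0.04 (-0.39 to 0.46). In artery, capillary and stem endothelium together Selp gave 3 counts at day 2 and 0 at day 7. The vein cells thus stood far above the other endothelial types on both days.

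A few cells carried the vein value. At day 2, 5 of 12 cells held Selp, with 80, 28, 8, 7 and 5 counts, and the other 7 held none. At day 7, 13 of 21 cells held it, with 36 and 14 counts in the top pair, 8 in the next and 1 to 4 in the other 10. Without the top cell of each day the level was 196 CPM (144 to 260) at day 2 and 276 CPM (197 to 376) at day 7. Ackr1, a chemokine-binding receptor of venular endothelium, was found at day 2 only in the top pair of Selp cells (18 and 20 counts), and at day 7 in 6 cells, all of them with Selp. Vwf, the von Willebrand factor kept in the same granules, was detected in 11 of 12 and 17 of 21 vein cells, including all 5 Selp cells of day 2 and 12 of the 13 of day 7. The top pair at day 2 also held the 2 counts of Ptprc (CD45) seen in the label, 1 each. The other 10 vein cells of day 2 held 20 Selp counts, or 108 CPM, against 480 CPM in the 21 vein cells of day 7, none of which held Ptprc.

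The vein cells were not all of 1 kind. The 4 vein markers Ackr1, Vwf, Nr2f2 and Lrg1 summed to 1231 CPM at day 2 and 2502 CPM at day 7 in these cells, against 92.6 to 292 CPM and 108 to 305 CPM in the other endothelial types, where Ackr1 was at 0. At day 7 a pair of the vein cells held 569 counts of genes of lymphatic endothelium (Lyve1, Ccl21a, Prox1, Mmrn1 and Flt4) and only 2 Selp counts. Leaving them out gave a Selp level of 520 CPM.

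**Figure D2:**
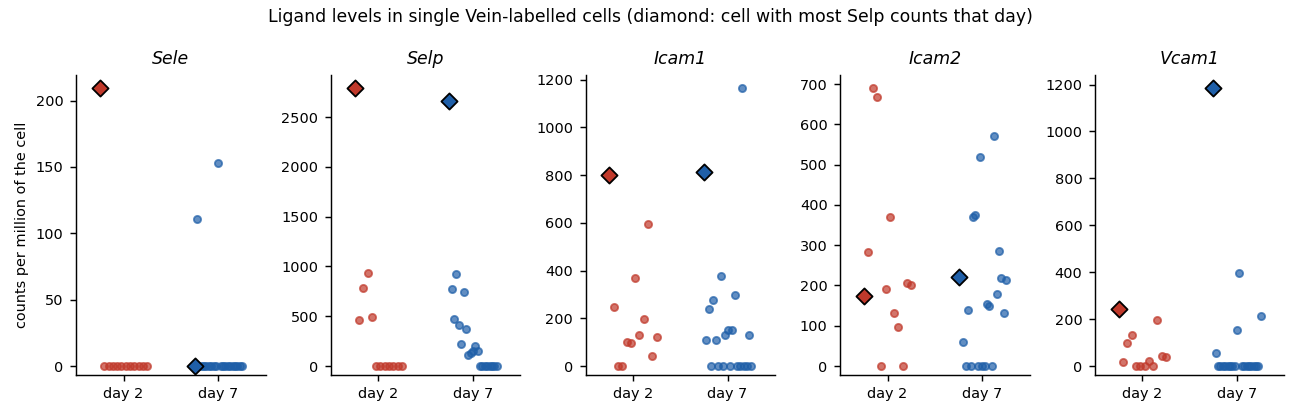
Level of the 5 ligand genes in each single cell annotated as vein endothelium, as CPM of that cell, at day 2 (12 cells, red) and day 7 (21 cells, blue). Diamonds mark the cell of each day with most Selp, which at day 2 also holds all Sele and at day 7 stands far above the others in Vcam1.

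E-selectin, which activated endothelium makes anew rather than stores, was rare. Vein endothelium gave 6 Sele counts at day 2, or 21.9 CPM (8.04 to 47.7), all of them in the cell with most Selp, and 3 counts at day 7, or 19.0 CPM (3.91 to 55.4), in 2 cells that both held Selp. No other endothelial type had a Sele count on either day. Without its top Selp cell the vein label at day 2 held none, which allowed up to 15.05 CPM. At this depth a difference in Sele between the days was not detectable, the log2 ratio of -0.21 having an interval from -2.84 to 2.02.

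ICAM-1, a ligand of LFA-1 that inflamed endothelium makes in quantity (Icam1, chr9:21015985-21028817, plus strand), was detected in all 4 endothelial types. It was highest in vein endothelium, at 267 CPM (209 to 335) at day 2 and 259 CPM (186 to 352) at day 7. In artery endothelium the values were 150 CPM (90.3 to 234) and 174 CPM (116 to 249), and in capillary endothelium 102 CPM (84.9 to 121) and 87.9 CPM (69.5 to 110). These 3 types differed between the days by less than the counting error. Stem endothelium alone did not, with 174 CPM (146 to 205) at day 2 and 51.6 CPM (33.1 to 76.8) at day 7, with a log2 ratio of -1.75 (-2.44 to -1.12). Over the 336 and 333 endothelial cells Icam1 was 146 CPM at day 2 and 103 CPM at day 7, with a log2 ratio of -0.51 (-0.79 to -0.25). At day 7 the order ran from vein through artery and capillary to stem endothelium, and among neighbours in it only the intervals of artery and capillary were apart.

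ICAM-2, a ligand of LFA-1 that resting endothelium carries without stimulation (Icam2, chr11:106377656-106388075, minus strand), went the other way. It was higher at day 7 in 3 of the 4 endothelial types. Artery endothelium had 213 CPM (140 to 310) at day 2 and 515 CPM (412 to 636) at day 7, capillary endothelium 176 CPM (154 to 201) and 393 CPM (353 to 437), and stem endothelium 162 CPM (135 to 193) and 376 CPM (323 to 436). The log2 ratios were 1.27 (0.63 to 1.95), 1.16 (0.91 to 1.41) and 1.21 (0.88 to 1.55). Vein endothelium was apart from them, with 215 CPM (164 to 278) and 171 CPM (112 to 248) and a ratio of -0.34 (-1.05 to 0.34). The 6 general endothelial markers were also higher at day 7 in all 4 types, by the sums given above, and their part in the Icam2 values was not tested.

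Shares of cells at equal depth had the same directions for both genes, with a gap for Icam1 that narrowed when fewer counts were kept. After each cell was thinned to 2000 counts, Icam1 was found in 20.5% (16.3 to 25.2) of 332 endothelial cells at day 2 and 11.8% (8.46 to 15.8) of 323 at day 7, and Icam2 in 31.3% (26.4 to 36.6) and 52.9% (47.3 to 58.5). Thinned to 1000 counts, the shares were 11.3% and 9.01% for Icam1 and 17.0% and 28.8% for Icam2. Unthinned, they were 42.9% and 25.5% for Icam1 and 64.6% and 72.7% for Icam2. FAPs, fibroblast-like cells that should lack Icam2, had it in 0 of 213 and 0 of 785 thinned cells, and in 1 of 215 and 9 of 805 before thinning. Median depths before thinning were 6104.5 and 4217 counts in endothelial cells and 24329 and 8429 in FAPs.

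VCAM-1, the ligand of VLA-4 that inflamed endothelium makes (Vcam1, chr3:116109949-116129688, minus strand), had its highest endothelial level in vein endothelium. The level was 65.7 CPM (39.0 to 104) at day 2, with 18 counts in 8 of 12 cells, and 133 CPM (82.2 to 203) at day 7, with 21 counts in 5 of 21 cells. The log2 ratio of 1.01 (0.03 to 2.01) rested on 1 cell, which held 16 of the 21 day 7 counts and was also the top Selp cell. Without the top Selp cell of each day the levels were 44.9 CPM (22.4 to 80.3) and 34.5 CPM (11.2 to 80.6), the second below the day 7 ambient level of 42.3 CPM. The other endothelial types lay between 0 and 8.88 CPM at day 2 and between 5.63 and 6.45 CPM at day 7, below the ambient levels of 12.4 and 42.3 CPM, which were measured in barcodes with 1 to 100 counts.

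**Figure D3:**
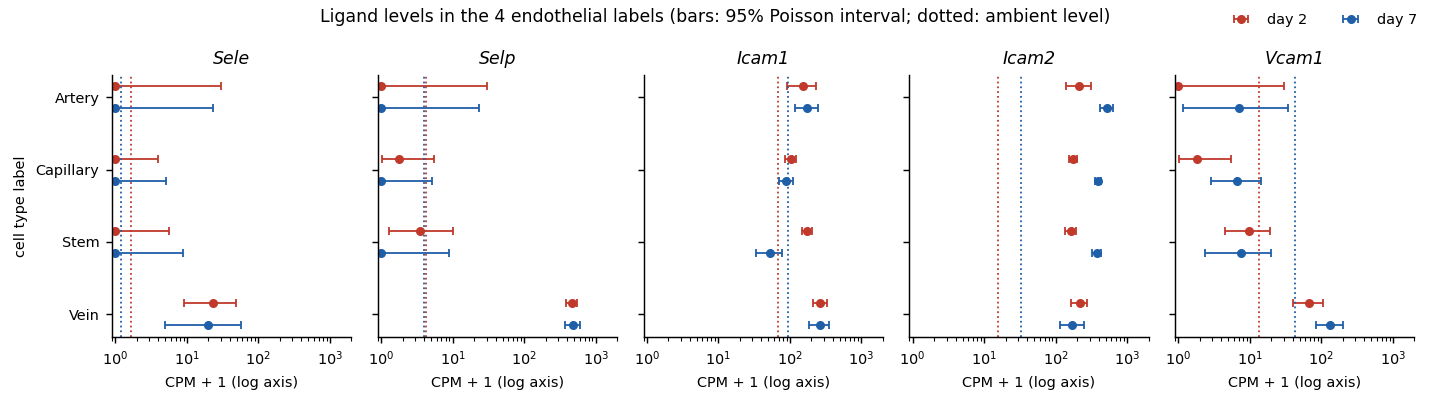
Levels of the 5 ligand genes in the 4 endothelial types at day 2 (red) and day 7 (blue), as CPM + 1 on a log axis, with exact 95% intervals that cover counting error only and the ambient level of each day as a dotted line. Selp stands above the other types in vein endothelium on both days, and Icam2 is more than 2-fold higher at day 7 in artery, capillary and stem endothelium but not in vein.

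Of the 5 ligands, 4 had at least 20 counts in the endothelial class, and 1 of these, Icam2, was at least 2-fold higher at day 7 (log2 ratio 1.09, 0.91 to 1.27), beside 14.9% of 9616 genes. None was at least 2-fold lower, beside 9.5% of genes, and the median log2 ratio over the 4 was 0.24 against 0.06 over all genes tested. Selp (54.0 and 45.3 CPM, ratio -0.25, -0.68 to 0.16) and Vcam1 (10.7 and 17.9 CPM, ratio 0.74, -0.07 to 1.55) had intervals that held 0. The Selp ratio was 2.17 in the endothelial cells without Ptprc, the cells left out including the 2 vein cells with 108 of the 131 day 2 counts. Of 41 tested genes listed for the pathway 9 were at least 2-fold higher and 4 lower, with a median log2 ratio of 0.21. The lower ones were Cd44 (-1.05), a receptor for hyaluronan, and the integrin chains Itgam (-2.99), Itgav (-1.43) and Itgb3 (-3.28). Counts at day 2 and day 7 were 23 and 2 for Itgam, 70 and 18 for Itgav and 28 and 2 for Itgb3. The chains Itga1 (1.52, 164 and 326 counts) and Itga9 (1.22, 26 and 42 counts) were higher. Whether transcripts of other cells had a part in these values was not tested. Of 8 tested junction molecules 2 were at least 2-fold higher, both of the JAM family of tight junction proteins, Jam2 (1.68) and Jam3 (1.23), and none lower. Of 5 venular genes 2 were higher, Vwf (1.68) and Plvap (1.55), the second encoding a protein of the fenestral diaphragm. Of 10 genes of the response to TNF and IL-1 only the receptor gene Il1r1 passed 2-fold (1.03, 0.46 to 1.61).

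The ligands were not confined to endothelium. Neutrophils of day 2 had 481 CPM of Icam1 (450 to 512), with counts in 350 of 708 cells, above the interval of every endothelial type on either day. NK cells had 210 CPM (126 to 328) at day 2 and 204 CPM (166 to 248) at day 7, and dendritic cells 136 CPM (121 to 153) and 119 CPM (99.2 to 142). In all 6 monocyte and macrophage types Icam1 was higher at day 7, from 35.6 to 86.4 CPM at day 2 to 85.9 to 140 CPM at day 7, with log2 ratios between 0.45 and 1.27 and every interval above 0. FAPs of the pro-remodeling type carried 149 CPM (136 to 162) and 103 CPM (95.2 to 112). The same gene was thus lower in stem endothelium and these FAPs and higher in monocytes and macrophages at day 7. Ambient Icam1 was 68.1 CPM at day 2 and 92.2 CPM at day 7, within the range of the macrophage values and above the day 7 values of capillary and stem endothelium (87.9 and 51.6 CPM), and its part in these values was not tested.

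Icam2 counts in cells not annotated as endothelial lay mostly in cells that also held endothelial transcripts. Cells annotated as smooth muscle held 188 CPM (176 to 200) and 326 CPM (305 to 348), but 957 of their 959 Icam2 counts at day 2 and all 883 at day 7 lay in cells that also held Cdh5 or Pecam1, the genes of VE-cadherin and CD31. T cells held 58.7 CPM and 119 CPM, against 10.0 CPM and 18.5 CPM in those without either gene. Cdh5 itself was found in 285 of 304 and 195 of 232 smooth muscle cells. Monocytes and macrophages stayed between 3.46 and 15.2 CPM in every type and on both days, against ambient values of 14.7 and 31.8 CPM. Whether such cells were doublets was not tested.

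Vcam1 was carried mostly by cells outside the vessels. Muscle stem cells (MuSCs), which are known to carry VCAM-1, had 475 CPM (427 to 527) at day 7, with counts in 122 of 137 cells, and myoblasts and progenitors had 231 CPM (212 to 250) in 104 of 175 cells. At day 2 only 2 of 21 MuSC-labelled cells held Vcam1 (15 counts), both with myogenic transcripts, and 15 of the 21 held none of Pax7, Myod1, Myf5 and Des. FAPs carried it on both days, 110 CPM (99.6 to 122) and 94.4 CPM (86.7 to 103) in the pro-remodeling type and 92.7 CPM (63.8 to 130) and 90.5 CPM (76.5 to 106) in the adipogenic type. The stem type of FAPs had 59.9 CPM (47.2 to 74.9) at day 2, with 28 of 76 counts in 1 cell, and 17.9 CPM (8.96 to 32.1) at day 7.

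Vcam1 was also counted in leukocytes, mainly in macrophages of day 7. Over the 6 monocyte and macrophage types it was 2.85 CPM (2.09 to 3.79) at day 2 and 34.3 CPM (30.2 to 38.8) at day 7, with a log2 ratio of 3.59 (3.14 to 4.07), and the interval lay above 0 in 5 of the 6. M2 macrophages low in Cx3cr1 reached 100 CPM (76.2 to 130), from 7.29 CPM (4.62 to 10.9), with counts in 24 of 105 cells. M1 macrophages had 1.62 and 32.3 CPM, and inflammatory monocytes, the exception, 1.59 and 3.59 CPM. Neutrophils of day 2 held 13 Vcam1 counts in 10 of 708 cells, 6.67 CPM (3.55 to 11.4). T cells gave 11 Vcam1 counts at day 2, 10 of them in 1 cell, and 14 at day 7. NK cells and B cells held 0 counts on both days, which allowed up to 40.8 and 7.51 CPM in NK cells and 37.2 and 104 CPM in B cells. At equal depth the share of monocytes and macrophages with Vcam1 was 0.620% (0.268 to 1.22) and 5.98% (4.39 to 7.92), or 2.32% and 14.8% unthinned, beside 0% and 1.39% of dendritic cells after thinning. Median depths were 11696 and 8546 counts in the former and 12015.5 and 6151 in the latter. Ambient Vcam1 went from 12.4 to 42.3 CPM, so that 5 of the 6 day 7 values lay under the ambient level of that day.

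Selectin transcripts were also counted in cells not annotated as endothelial, at low levels. Neutrophils of day 2 held 32 Selp counts in 27 of 708 cells, 16.4 CPM (11.2 to 23.2), and dendritic cells 25 in 15 of 170 cells, 11.6 CPM (7.53 to 17.2). None of these Selp cells held a count of Ppbp, Gp9 or Itga2b, 3 of the 4 listed platelet genes, and the other one, Pf4, was not looked at in them. Only 10 of all 708 neutrophils and 5 of all 170 dendritic cells held any of the 3, too few for the absence to tell. Where these Selp counts came from was not tested. Dendritic cells of day 7 held 2 Selp counts. Monocytes and macrophages held 19 at day 2, 1.15 CPM (0.694 to 1.80), and 0 at day 7. Cells annotated as smooth muscle gave 7 and 11 Selp counts, all in cells with Cdh5, and 6 and 13 Sele counts, of which 10 at day 7 came from 1 cell. This type had Cdh5 at 1142 and 1777 CPM, within the 1034 to 1513 CPM and 1352 to 1927 CPM of the endothelial types. Ambient levels were 3.27 and 3.02 CPM for Selp and 0.655 and 0.201 CPM for Sele.

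Selplg, the gene of the selectin ligand PSGL-1 (chr5:113818536-113832644, minus strand), was found in every leukocyte type. Neutrophils of day 2 had 504 CPM (473 to 537), NK cells 442 CPM (316 to 602) at day 2 and 566 CPM (502 to 637) at day 7, and T cells 231 CPM (178 to 296) and 286 CPM (261 to 313). Monocytes and macrophages together went from 96.9 CPM (92.2 to 102) to 253 CPM (242 to 265), a log2 ratio of 1.39 (1.29 to 1.48). It was higher at day 7 in all 6 of their types, from 0.85 (0.40 to 1.32) in Cxcl10+ monocytes to 1.77 (1.51 to 2.04) in inflammatory monocytes. Dendritic cells also had more, 310 CPM (287 to 335) and 523 CPM (480 to 569), while the intervals of the ratio in NK and T cells held 0. In endothelial cells the level was 6.18 and 5.36 CPM.

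Itga4, the alpha chain of VLA-4 that meets VCAM-1 (chr2:79255426-79333123, plus strand), had the same direction. In monocytes and macrophages it was 45.3 CPM (42.1 to 48.6) at day 2 and 108 CPM (101 to 116) at day 7, with a log2 ratio of 1.25 (1.11 to 1.40), and all 6 types were higher, from 0.75 in Cxcl10+ monocytes to 1.97 in patrolling monocytes (18.4 and 71.9 CPM). Dendritic cells had 80.1 CPM (68.6 to 93.0) and 181 CPM (156 to 209). T cells had 36.7 CPM (17.6 to 67.5, 10 counts) at day 2 and 257 CPM (233 to 283, 418 counts) at day 7, with a log2 ratio of 2.81 (1.92 to 3.88). Without the cells that held basophil genes the T cell level was 45.2 CPM at day 2 and 258 CPM at day 7. At equal depth Itga4 was found in 8.70% (2.42 to 20.8) of T cells at day 2 and 35.5% (29.5 to 41.8) at day 7, beside 0.301% and 0.310% of endothelial cells. Unthinned, it was found in 8 of 50 and 144 of 293 T cells, at median depths of 3318.5 and 3620 counts. Of the 144 T cells with Itga4 at day 7, 123 also held Itgb1 or Itgb7, the beta chains it pairs with, as did 248 of all 293 T cells.

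Itgb2, the beta chain that LFA-1 shares with the other leukocyte integrins (chr10:77530252-77565708, plus strand), was the partner that was lower at day 7. Monocytes and macrophages had 434 CPM (424 to 445) and 321 CPM (308 to 334), a log2 ratio of -0.44 (-0.50 to -0.37), and 5 of their 6 types were lower. The widest gaps were in Cx3cr1-high M2 macrophages, at 520 CPM (473 to 570) and 185 CPM (162 to 211), and in inflammatory monocytes, at 635 CPM (605 to 667) and 291 CPM (248 to 340). Patrolling monocytes had 442 CPM (418 to 468) and 425 CPM (392.2 to 460), a ratio of -0.06 (-0.20 to 0.08). Dendritic cells had 379 CPM (353 to 406) and 180 CPM (155 to 208). In T cells the levels were 143 CPM (102 to 196) and 179 CPM (159 to 201), but 60.3 CPM at day 2 in the cells without basophil genes.

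Itgal, the alpha chain particular to LFA-1 (chr7:127296260-127335138, plus strand), split the monocyte and macrophage types. Together they had 37.8 CPM (34.9 to 40.9) and 74.7 CPM (68.7 to 81.2), a log2 ratio of 0.98 (0.82 to 1.15). At day 2 inflammatory monocytes stood highest of the 6, with 118 CPM (105 to 132), and Cx3cr1-low M2 macrophages lowest, with 2.54 CPM (1.10 to 4.998, 8 counts). At day 7 the 6 types lay between 56.6 and 97.0 CPM, so the spread among them was far narrower. Inflammatory monocytes were lower then, at 75.5 CPM (54.4 to 102), 4 types were higher, and in Cx3cr1-high M2 macrophages the interval held 0. NK cells had the highest Itgal level at day 2, 331 CPM (224 to 473), and kept 281 CPM (236 to 332) at day 7. In T cells it was 103 CPM (68.3 to 149) and 178 CPM (158 to 200), a ratio of 0.80 (0.23 to 1.41), against 80.4 and 177 CPM in the cells without basophil genes. Of the 153 T cells with Itgal at day 7, 85 also held Itgb2, as did 46 of the 67 such NK cells, beside 134 of all 293 T cells and 70 of all 111 NK cells.

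**Figure D4:**
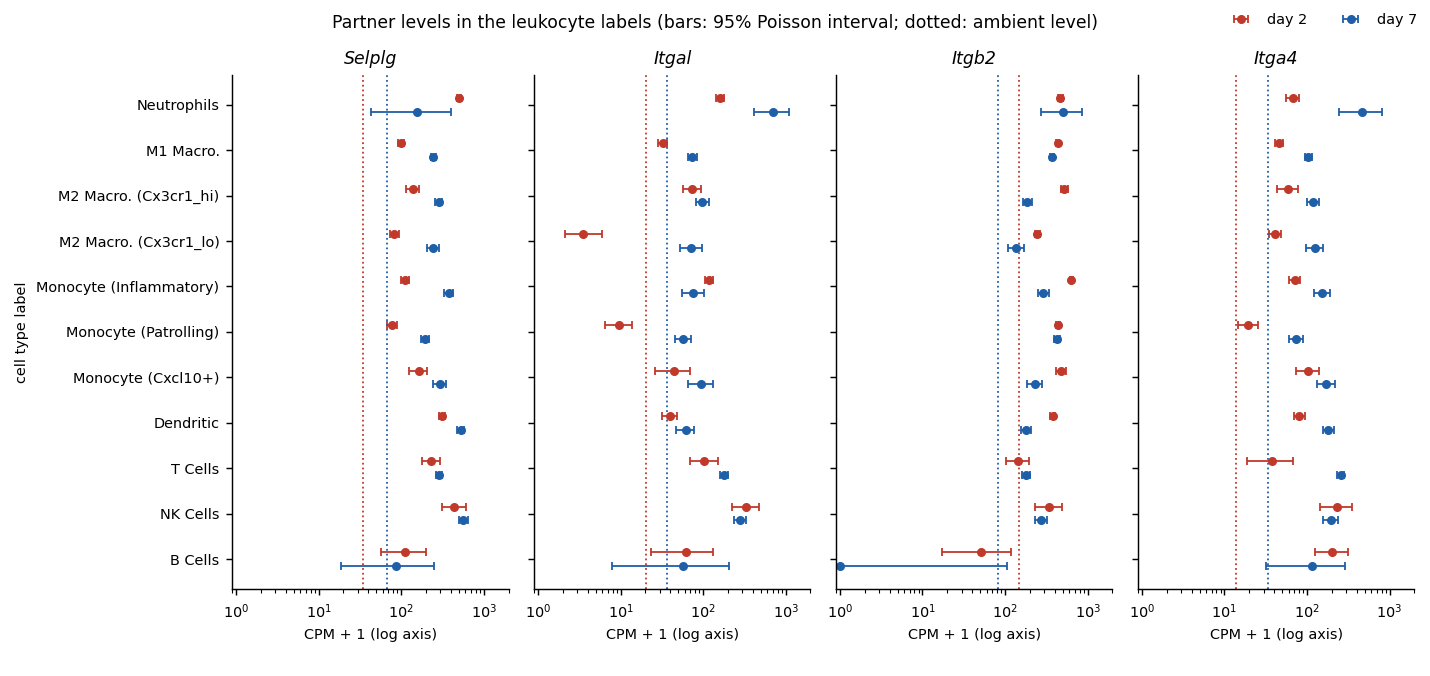
Levels of the 4 partner genes in the leukocyte types at day 2 (red) and day 7 (blue), as CPM + 1 on a log axis, with exact 95% intervals that cover counting error only and the ambient level of each day as a dotted line. Selplg and Itga4 are higher at day 7 in each monocyte and macrophage type, and Itgb2 is lower in 5 of 6. The day 7 neutrophil values rest on 10 cells that mostly lacked neutrophil markers, and they were not read.

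Of the 4 partners, 2 (Selplg and Itga4) were at least 2-fold higher at day 7 in the monocyte and macrophage class, beside 19.3% of 11318 genes, and none was at least 2-fold lower, beside 12.8%. In T cells 1 of the 4 (Itga4) was at least 2-fold higher, beside 15.8% of 8330 genes, and none lower, beside 8.9%. A check added after seeing the data left out T cells that held basophil genes, which kept 33 of 50 cells at day 2. In it Itgal (80.4 and 177 CPM) and Itgb2 (60.3 and 179 CPM) were at least 2-fold higher as well. The day 2 value of Itgal rested on 16 counts there, and no share of all genes was computed for these cells. The median log2 ratio over the partners was 1.12 in monocytes and macrophages, against -0.02 over all genes tested, and 0.56 in T cells, against 0.09. With median-of-ratios scaling over the 6161 genes with at least 100 counts in the monocyte and macrophage class on both days, whose median log2 ratio was -0.15, Itgal passed 2-fold as well (1.14), whereas its ratio as a mean over cells was 0.39. Ambient levels were 33.4 and 67.3 CPM for Selplg, 19.3 and 36.0 CPM for Itgal, 148 and 81.4 CPM for Itgb2, and 12.8 and 33.0 CPM for Itga4. They differed between the days in the same directions as the class, and their part in the result was not tested. Dendritic cell markers (Flt3, Xcr1, Clec9a, Cd209a and H2-Aa) were higher in sum at day 7, as were Selplg, Itgal and Itga4 but not Itgb2. The marker sum in the 6 monocyte and macrophage types was between 220 and 4196 CPM at day 2 and between 4290 and 12494 CPM at day 7. It was not split by gene here, and its part in the result was not tested. In B cells, with 29 and 13 cells, Itga4 was 201 CPM (123 to 311) and 113 CPM (30.8 to 289).

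**Figure D5:**
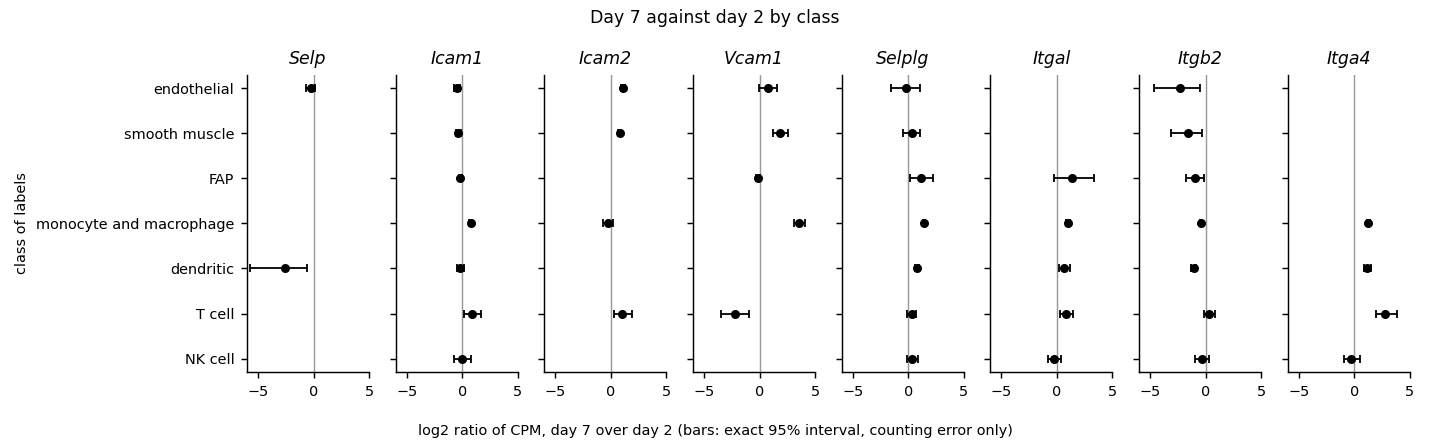
Log2 ratio of day 7 to day 2 (horizontal axis) for 8 of the adhesion genes in 7 cell classes (rows), with exact 95% intervals that cover counting error only. Icam1 lies below 0 in endothelium and above 0 in monocytes and macrophages and in T cells, and Itgb2 is the partner below 0 in monocytes and macrophages. Sele and points resting on few counts are left out.

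Several chains that pair with the members had wider gaps between the days in monocytes and macrophages. Of 9 other integrin chains tested, 2 were at least 2-fold higher and 3 lower, beside 19.3% and 12.8% of all genes. Itgax, which pairs with Itgb2 and marks dendritic cells and some macrophages, went from 10.4 to 336 CPM (log2 ratio 5.01, 4.78 to 5.24), whereas Itgam, the alpha chain of Mac-1 that also pairs with Itgb2, went from 500 to 154 CPM (-1.70, -1.79 to -1.61). Itgb1, the beta chain of VLA-4, was 221 and 167 CPM (-0.40, -0.49 to -0.31), and Itgb7, the other beta chain that binds the Itga4 product, 93.1 and 26.3 CPM (-1.82, -2.04 to -1.61). Itga4 and both of its beta chains therefore differed in direction. Fut7, the fucosyltransferase that finishes selectin ligands, was at 0.425 and 4.52 CPM (3.41, 2.22 to 4.83). Of 7 tested integrin activators 2 were higher, Fyb (1.08) and Rassf5 (1.17), and 1 was lower, Rap1b (-1.11), beside the same shares of all genes, while Fermt3, the gene of kindlin-3, had a ratio of 0.05 (-0.05 to 0.15).

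Levels across 41 groups, each 1 cell type on 1 day with at least 20 cells, were compared with those of 12481 other genes on the log2(CPM + 1) scale. These groups share libraries and annotation, so the values are descriptive. Icam2 was most like S1pr1 (Pearson's r 0.93), Flt1 (0.92) and Cdh5 (0.92), all genes of endothelium. The 4 partners were most like pan-leukocyte genes, Selplg like Bin2, Ptprc and Arhgap9 (all 0.96), Itgb2 like Nckap1l (0.97), Tyrobp (0.97) and Cd53 (0.96), Itgal like Selplg (0.94), Itga4 (0.93) and Ptk2b (0.92), and Itga4 like Sash3 (0.95), Selplg (0.94) and Ikzf1 (0.94). Icam1 was nearest to Casp4 (0.87), Nfkbiz (0.85) and Lrp10 (0.84), and Vcam1 to Gpx3 (0.86), Cp (0.82) and Vgll3 (0.80). Selp had the highest values with Lyve1 (0.82), Ccl21a (0.77) and Rbm44 (0.62), the first 2 being the lymphatic genes of the pair of vein cells described above, which held only 2 Selp counts. Sele, with 38 counts in all, was nearest to the same Lyve1 (0.77) and Ccl21a (0.75), and then to Selp (0.73). The day 2 vein cells, being 12, were not among the groups.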

How the data were processed

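Single-cell RNA sequencing was done on 2 libraries, 1 for each day after injury, and samples were grouped by the day in their labels. The authors deposited raw UMI counts for each gene in each barcode, made with Cell Ranger against mm10 (release 3.0.1 per the file headers, 3.1.0 per the submitters' processing notes, which also name Seurat 3.1.5). Also deposited were estimated counts, not always whole numbers, from which SoupX had taken ambient RNA, and a table of cell annotations. Per the study's methods, droplets called doublets were removed before annotation, and no doublet caller was run here. The filtered tables held 4836 and 4889 barcodes with 41123913 and 32356088 counts. The annotation table held 3537 and 3416 of these barcodes, 43 and 31 of them without a cell type.

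Cells were kept when annotated and, in the SoupX values, with 750 or more genes, 1000 or more transcripts and no more than 30% from mitochondria, which left 3208 and 3221 cells, 3178 and 3196 with a cell type. Uncorrected counts were summed per cell type and day and scaled to CPM, so that a level is a share of the transcripts of its cell type. SoupX had removed between 0.504% and 2.57% of the counts of each gene. Sums have exact Poisson intervals, shares Clopper-Pearson intervals and ratios conditional binomial intervals, all at 95%. What a count of 0 allowed in a cell type is the upper Poisson limit. In the counts of genes past 2-fold a count of 0 was set to a floor of 3 counts. With 1 library per day no p-value or standard error was computed. Cells were thinned to 2000 counts for shares. Genes with at least 20 counts in a class over both days entered the counts past 2-fold. Ambient levels came from barcodes with 1 to 100 counts, 3053639 and 4966167 counts in all. The named genes were all 9 adhesion genes, the listed genes of their pathway and the 3 genes of at least 100 counts most like each. One listed gene is not reported here. The genes and lists were chosen with earlier results of these data known. Interval coverage was tested on simulated Poisson counts. These leave out the clumping of counts in single cells, so coverage under such clumping was not tested. Coordinates came from GENCODE on GRCm38. Python 3.11.15, numpy 2.4.6, scipy 1.17.1, pandas 2.3.3 and matplotlib 3.10.9 were used. Alternatives for the limits on cells, SoupX values, scaling, averaging, cells with markers of another lineage, thinning and the count minimum were planned, and 4 on single cells or cell types were added after seeing the data.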

Additional observations from a re-analysis of the deposited data

Results flagged for a closer look

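Icam1 and Vcam1 had opposite directions in different cell classes, with both intervals apart from 0, and these differences were not tested. Icam1 had a log2 ratio of day 7 to day 2 of 0.88 in T cells and -0.51 in endothelial cells. The day 2 value in T cells was 62.4 CPM on 17 counts, below the ambient 68.1 CPM of that day. Of the 4 endothelial types only stem endothelium had an interval apart from 0. Vcam1 had a ratio of 3.59 in monocytes and macrophages and -2.23 in T cells, where the day 2 value rested on 11 counts, all in 2 cells with endothelial transcripts.

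Signal of the adhesion genes was also present in barcodes outside the comparisons above, namely those that passed the cell limits but were absent from the annotation table. They are called out because their levels lay above what a count of 0 allows. Selp at day 2 and Icam1 and Itgb2 at day 7 lay below the ambient levels of those days (3.27, 92.2 and 81.4 CPM). The 680 such barcodes of day 2 held 1.75 CPM of Sele, 1.92 CPM of Selp, 81.0 CPM of Icam1, 33.9 CPM of Icam2 and 31.0 CPM of Vcam1. Their partner levels were 65.8 CPM of Selplg, 29.6 CPM of Itgal, 214 CPM of Itgb2 and 32.0 CPM of Itga4. The 477 of day 7 held 60.3 CPM of Icam1, 144 CPM of Icam2 and 67.4 CPM of Vcam1, and 99.2 CPM of Selplg, 46.7 CPM of Itgal, 72.9 CPM of Itgb2 and 51.6 CPM of Itga4. Which cells these were was not tested.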

How the results depend on the processing

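Among the ligand ratios in the endothelial class and the partner ratios in monocytes and macrophages, none whose interval lay apart from 0 changed sign under the alternatives run. Those of Selp (-0.25) and Sele (-0.47), whose intervals held 0, did. The Vcam1 ratio in vein endothelium (1.01) turned without the top Selp cell of each day (44.9 and 34.5 CPM). As a mean over cells the ratios were 0.35 for Sele, 0.27 for Selp and -0.82 for Icam1 in endothelium, and 0.39 for Itgal, -0.87 for Itgb2 and 1.08 for Itga4 in monocytes and macrophages. Median-of-ratios scaling gave 1.54 for Selplg, -0.28 for Itgb2 and 1.41 for Itga4, a shift its construction sets for every gene of the class. In cells without markers of the other lineage Selp was 2.17, a value set by the 2 vein cells left out at day 2, and Itgal was 0.71, whose cause was not tested. The counts of genes past 2-fold move with the count minimum by its construction. With at least 100 counts and with at least 1 count, genes higher at day 7 numbered 619 and 3375 in endothelium and 1132 and 5162 in monocytes and macrophages, from 1428 and 2186, and genes lower in endothelium 556 and 2173, from 914. In T cells a minimum of 100 counts gave 331 higher and 181 lower, from 1314 and 741, and a minimum of 1 count gave 4706 lower. In the other 46 recomputed ratios and counts of genes the value stayed within its counting interval, or within 1.5 times for a count. No paired analysis was possible because each day had 1 library, and for the same reason no library could be left out. Shares of endothelial cells moved with thinning and with the number of counts asked for. With at least 2 counts they were 3.61% and 2.48% for Icam1 and 4.82% and 19.5% for Icam2. Sele was too rare to give a ratio in cells without Ptprc. Vein endothelium, with 12 and 21 cells, limits what can be said of both selectins.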
